A study of Oryza longistaminata with 9 samples.

Results

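Acyl-[acyl-carrier-protein] (acyl-ACP) desaturases were examined as transcripts in anthers of the African wild rice Oryza longistaminata. The rule that chose the members used identifiers and descriptions and no measured value. They comprised BGIOSGA015217, which the study calls ACP9, the gene BGIOSGA015218 near it, and each gene whose description combined acyl-[acyl-carrier-protein] with desaturase. The rule found 4 of the 46327 gene models of the count table. All 4 passed the read filter and were tested, BGIOSGA006418 through a single stage only, as given below. The study's results name isolated anther tissue as the source of the RNA, while its RNA sequencing methods name pollen. The samples are called anthers here, and the study states no treatment of the plants. Ls-6mm samples came from 6-mm spikelets (stage 6, when microspore mother cells are enclosed by the wall layers and the tapetum). Ls-4mm samples came from 4-mm spikelets (stage 4, with primary sporogenous cells), and each stage had 3 libraries. Neither labels nor methods tie the libraries to different plants, and p-values therefore measure the spread between these libraries, which may be technical. The third stage of the study, Ls-8.5mm, is not analysed here.

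Acyl-ACP desaturases are soluble di-iron enzymes of the plastid stroma. They place the first double bond into a saturated acyl chain while the chain is still bound to acyl carrier protein, using electrons from reduced ferredoxin, and the classic reaction turns stearoyl-ACP into oleoyl-ACP. Oleate then leaves the plastid, or enters plastid lipids, and is the precursor of linoleic and linolenic acids, so these enzymes set the entry of carbon into unsaturated membrane and storage lipids. In anthers, tapetal cells and developing pollen both make such lipids. Arabidopsis has several such genes, among which FAB2 (SSI2) supplies most of the leaf activity.

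The table described ACP9 as stearoyl-ACP 9-desaturase 5 and 2 members as acyl-ACP desaturase 3 (BGIOSGA006418) and acyl-ACP desaturase 7 (BGIOSGA027484), all chloroplastic, while BGIOSGA015218 carried no isoform number. Positions are given as listed in the table, and the build behind them was not settled, since the methods point to an O. longistaminata genome while the identifiers carry the prefix of the indica rice annotation. ACP9 lay on chromosome 4 from 16048180 to 16051667 and BGIOSGA015218 on the same chromosome from 16038684 to 16039725, both on the minus strand, with a gap of 8454 bases that held 2 other coding models. Desaturase 3 lay on chromosome 2 from 19162426 to 19167516 and desaturase 7 on chromosome 8 from 6148584 to 6149866, again on the minus strand. The coding models of ACP9, desaturase 3 and desaturase 7 were alike in length at 1176, 1209 and 1215 bases, or 392, 403 and 405 codons with the stop. The model of BGIOSGA015218 was far shorter, at 633 bases or 211 codons. The gene span was 4.21 times the coding length in desaturase 3, 2.97 times in ACP9, 1.65 times in BGIOSGA015218 and 1.06 times in desaturase 7. No other gene model overlapped any of the 4. The coding and protein sequences of the members were not used here, so it was not measured how alike they are or how far reads of the neighbours on chromosome 4 could be split, and the levels of both are uncertain to that extent. The study's methods state that unique alignments were used. To identify the locus followed as ACP9 by the study, its primer pair for quantitative PCR is shown, 5′ to 3′ and in lower case throughout because no part of it was singled out.
ACP9 forward primer: cctgggctgtttggacaaga
ACP9 reverse primer: tggcgtgccttgcagtatta

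Every Ls-6mm library was deeper than every Ls-4mm library. Total counts ran from 17076800 to 21232663 in Ls-6mm and from 14509449 to 16684146 in Ls-4mm, and the biological coefficient of variation that edgeR estimated over all tested genes was 4.73%. Libraries of a stage differed by more than read sampling, with a chi-square per degree of freedom of 2.12 to 2.50 within Ls-6mm and 2.06 to 3.49 within Ls-4mm, where the higher values involved Ls-4mm replicate 1. Words chosen as anther markers gave a list called tapetum and pollen wall. Its genes are described as strictosidine synthases, fatty acyl-CoA reductases or FAE1/type III polyketide synthase-like proteins. No description names the tapetum, so the name of the list was not checked. The summed level of the list was 1890 to 1964 CPM (counts scaled to a common library total) in Ls-6mm and 744 to 877 CPM in Ls-4mm. The words also found 4 meiotic genes, at 15.1 to 18.7 CPM in Ls-6mm and 69.6 to 80.4 CPM in Ls-4mm. Of these, 3 were lower in Ls-6mm, as were 38.6% of all genes tested. Of the 41 genes listed as tapetum and pollen wall, 9 were at 0 counts in Ls-6mm and 19 in Ls-4mm. The words for stamen identity genes matched 0 gene models, so that check could not be made.

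Of the 4 desaturase transcripts, 3 were higher in anthers of 6-mm spikelets and ACP9 did not pass the test. The increase was 26.6-fold for desaturase 7, 4.08-fold for desaturase 3 and 2.01-fold for BGIOSGA015218, and 0 of the 4 were called lower. Genes were called at an edgeR quasi-likelihood adjusted p under 0.05 with any fold change. By that rule 80.6% of the 23691 genes tested were called, 42% as higher and 38.6% as lower, so a count of 3 of 4 is close to the background and is no result about the family. With an adjusted p of at most 0.001 and a change of at least 2-fold the same 3 members passed as higher, where 36.9% of all genes passed and 23.6% as higher. BGIOSGA015218 met the 2-fold limit narrowly, at a log2 fold change of 1.007. Desaturase 3 entered the test only through Ls-6mm, so the filter favoured its direction and nothing is read from its call. The median log2 fold change was 1.52 over the 4 members and 0.04 over all genes tested. These are bulk samples, in which fewer cells of a type and less RNA per cell cannot be told apart.

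Levels of different genes are compared as FPKM, the authors' count of fragments divided by coding length and by a scaled library size. In Ls-6mm the order was BGIOSGA015218, then ACP9 and desaturase 7 with overlapping libraries, then desaturase 3. In Ls-4mm it was BGIOSGA015218, ACP9, desaturase 7 and desaturase 3, with no overlap between neighbours in the order. Desaturase 7 thus stood level with ACP9 in Ls-6mm and far below it in Ls-4mm.

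**Figure D1:**
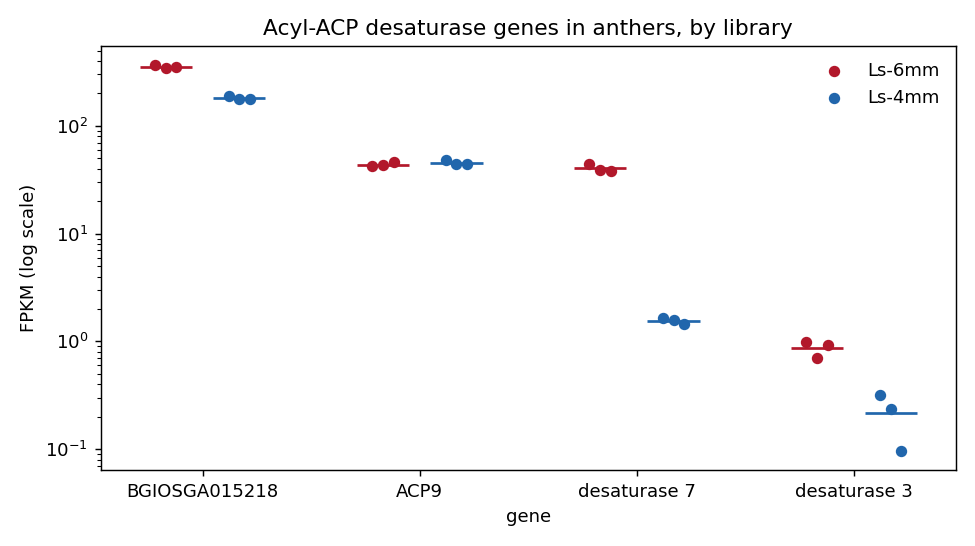
Level of each acyl-ACP desaturase gene in every library, as FPKM on a log axis, with Ls-6mm in red on the left and Ls-4mm in blue on the right of each gene, points for the 3 libraries and a line at their mean. ACP9 lies between 42.1 and 48.3 FPKM in all 6 libraries, while desaturase 7 lies between 38.4 and 44.0 FPKM in Ls-6mm and between 1.44 and 1.65 FPKM in Ls-4mm.

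BGIOSGA015218 was the most abundant transcript among the 4 members at both stages. It had 366, 344 and 354 FPKM in Ls-6mm, against 189, 178 and 178 FPKM in Ls-4mm, on 3812 to 4610 counts per library in Ls-6mm and 1847 to 1991 in Ls-4mm. Every Ls-6mm library was well above every Ls-4mm library. The log2 fold change was 1.01 (standard error 0.04, 95% interval 0.92 to 1.09, edgeR adjusted p = 2.96e-13). Its FPKM was above that of 98.1% of the tested protein-coding genes in Ls-6mm and of 96.4% in Ls-4mm. As FPKM divides by coding length, its short coding model raises this value relative to the other members. In counts, which are not divided by length, it still led the 4 members at both stages.

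ACP9, the stearoyl-ACP desaturase that the study followed as a protein, had transcript levels that overlapped between the stages. It had 42.1, 43.0 and 45.8 FPKM in Ls-6mm, against 48.3, 44.2 and 43.9 FPKM in Ls-4mm, on 866 to 1070 counts per library in Ls-6mm and 878 to 921 in Ls-4mm. Ls-6mm replicate 3 exceeded Ls-4mm replicates 2 and 3. In TMM-scaled CPM it averaged 53.6 ± 2.35 in Ls-6mm and 54.3 ± 2.51 in Ls-4mm (SD, n = 3 each). The log2 fold change was −0.02 (standard error 0.05, 95% interval −0.13 to 0.10, edgeR adjusted p = 0.764). With library size as the only scaling it was −0.15 and passed as lower (edgeR adjusted p = 0.0175), where 44% of all genes were called lower. That scaling moved the fold changes of all genes by a median of −0.14, and relative to the median of all genes ACP9 stood at −0.06 under both scalings. ACP9 was in the upper part of the range at both stages, above 78.3% of tested protein-coding genes in Ls-6mm and 80.7% in Ls-4mm.

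Desaturase 7 showed the largest difference between stages within the family. It had 44.0, 38.6 and 38.4 FPKM in Ls-6mm, against 1.65, 1.58 and 1.44 FPKM in Ls-4mm, on 793 to 993 counts per library in Ls-6mm and 30 to 34 in Ls-4mm. Each Ls-6mm library was more than 20 times each Ls-4mm library. The log2 fold change was 4.73 (standard error 0.11, 95% interval 4.50 to 4.96, edgeR adjusted p = 1.91e-16). A larger log2 fold change was seen in 1407 of the tested genes, or 5.94%. Relative to other tested protein-coding genes it was above 76.6% in Ls-6mm and above 18.0% in Ls-4mm.

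Desaturase 3 was near the lower end of the range at both stages. It had 0.994, 0.703 and 0.925 FPKM in Ls-6mm, against 0.321, 0.234 and 0.0962 FPKM in Ls-4mm, which rest on 21, 18 and 19 counts in Ls-6mm and 6, 5 and 2 counts in Ls-4mm. The groups did not overlap, which held for 81.7% of all tested genes in CPM. The log2 fold change was 2.03 (standard error 0.42, 95% interval 1.13 to 2.93, edgeR adjusted p = 0.000322). Desaturase 3 entered the test only through Ls-6mm, so the filter favoured this direction and nothing is read from the call. Summed over the 3 libraries, its level in CPM of the raw totals was 1.04 in Ls-6mm (exact Poisson 95% interval 0.788 to 1.34) and 0.275 in Ls-4mm (0.146 to 0.470), where the intervals cover counting error only. It was above only 5.49% of tested protein-coding genes in Ls-6mm and 6.39% in Ls-4mm.

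The summed level of the 4 genes was higher in Ls-6mm, and most of the difference came from a single member. The sum was 453, 426 and 440 FPKM in Ls-6mm, against 239, 224 and 224 FPKM in Ls-4mm, a ratio of 1.92 between the means. BGIOSGA015218 made up 80.7 ± 0.0634% of the sum in Ls-6mm and 79.4 ± 0.361% in Ls-4mm (SD, n = 3 each). ACP9 made up 9.94 ± 0.567% in Ls-6mm and 19.9 ± 0.299% in Ls-4mm. Desaturase 7 made up 9.17 ± 0.495% in Ls-6mm and 0.680 ± 0.0336% in Ls-4mm. The share of BGIOSGA015218 thus moved by little over 1 percentage point, while that of ACP9 was lower and that of desaturase 7 higher in Ls-6mm. Desaturase 3 stayed under 0.22% of the sum in every library. Sums and shares over chosen genes were not tested.

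**Figure D2:**
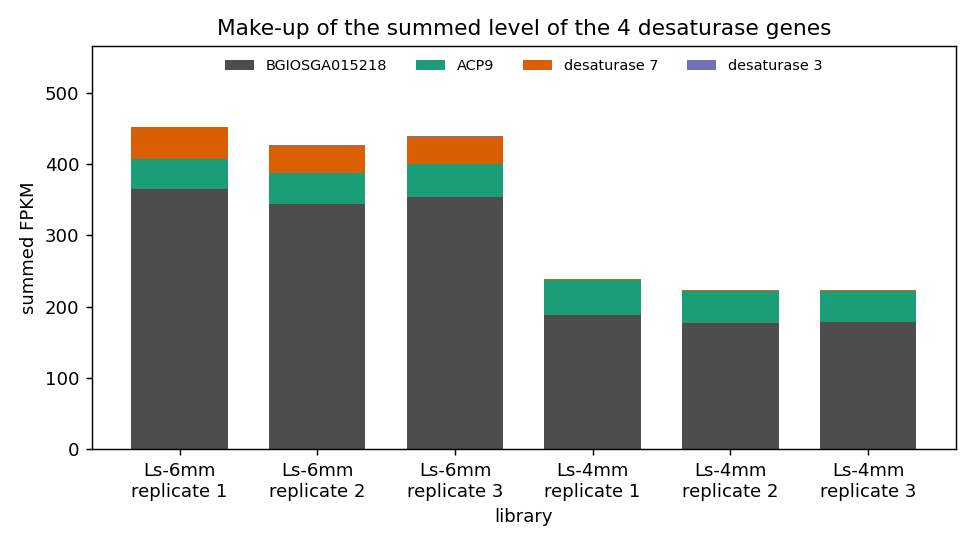
Summed FPKM of the 4 acyl-ACP desaturase genes in each library, stacked by gene, with the 3 Ls-6mm libraries left of the 3 Ls-4mm libraries. The sum is 426 to 453 FPKM in Ls-6mm and 224 to 239 FPKM in Ls-4mm, and the desaturase 7 segment is visible mainly in Ls-6mm.

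Whether members changed unequally was asked with the ratio of their FPKM inside each library, which does not depend on the scaling of libraries. BGIOSGA015218 stood to its chromosome 4 neighbour ACP9 at 8.13 to 1 in Ls-6mm and 3.99 to 1 in Ls-4mm. On the log2 scale the ratio was 2.95 to 3.12 in the Ls-6mm libraries, against 1.97 to 2.02 in the Ls-4mm libraries, a difference of 1.03. Desaturase 7 stood to ACP9 at 0.923 to 1 in Ls-6mm and 0.0342 to 1 in Ls-4mm, a log2 difference of 4.75. All 6 pairs of members were compared, and the libraries of the stages did not overlap in any of them. No share over all pairs of genes was computed, and as 81.7% of single tested genes did not overlap either, nothing is read from that count. The exact two-sided permutation test gave p = 0.10 for each pair (0.10 after Benjamini-Hochberg adjustment over 6 pairs), the smallest value that 3 libraries against 3 allow. The 95% intervals of the fold changes of BGIOSGA015218, ACP9 and desaturase 7, given above, do not overlap each other. They rest on the same libraries and are no test of unequal change, and no share over all pairs was computed.

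Beyond the rule, the table described 6 more genes as stearoyl-ACP desaturases or by the domain PF03405, the domain of soluble acyl-ACP desaturases. They were picked after their values had been seen. Of these, 4 were tested, with 2 higher and 2 lower in Ls-6mm, where 42% of all tested genes were higher and 38.6% lower. The other 2 (BGIOSGA021178 and BGIOSGA040397) had 0 counts in all 6 libraries. With no read in 3 libraries, up to 3 counts per stage remain possible, or 0.0537 CPM in Ls-6mm and 0.0634 CPM in Ls-4mm, for counting error only.

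The nearest relative by position stood in contrast to desaturase 7. BGIOSGA027485, known in the table only by its desaturase domain, lies on chromosome 8 from 6105679 to 6107236 on the same strand, 41347 bases from desaturase 7, with 2 coding models between them. It had 16.1, 14.4 and 16.6 FPKM in Ls-6mm, against 81.9, 113 and 108 FPKM in Ls-4mm. The groups were far apart, although Ls-4mm replicate 1 was below the other 2. It fell by 2.65 on the log2 scale (standard error 0.10, edgeR adjusted p = 2.98e-13). Its level was thus above that of desaturase 7 in each Ls-4mm library and below it in each Ls-6mm library.

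SSI2 (BGIOSGA000237, chromosome 1 from 43951358 to 43954889), described as stearoyl-ACP 9-desaturase 2 and named like the Arabidopsis housekeeping enzyme, was lower by a small amount. It had 28.6, 29.9 and 29.8 FPKM in Ls-6mm, against 41.4, 40.7 and 41.1 FPKM in Ls-4mm, and fell by 0.44 on the log2 scale (standard error 0.05, edgeR adjusted p = 9.58e-07). Stearoyl-ACP 9-desaturase 1 (BGIOSGA004922) was at 4.69, 5.11 and 6.73 FPKM in Ls-6mm, against 1.35, 1.53 and 1.52 FPKM in Ls-4mm. Its log2 fold change was 1.94 (standard error 0.20, edgeR adjusted p = 9.27e-08). BGIOSGA010503, on chromosome 3 with a gene span of 813 bases that equals its coding length, had 49.9, 46.3 and 52.3 FPKM in Ls-6mm, against 27.0, 35.5 and 32.8 FPKM in Ls-4mm (log2 fold change 0.67, standard error 0.09, edgeR adjusted p = 1.72e-06). The genes described as stearoyl-ACP 9-desaturase, ACP9 among them, included 1 higher, 1 lower and 1 not past the threshold. Of all tested genes 42% were higher and 38.6% lower, so nothing is read from these counts.

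**Figure D3:**
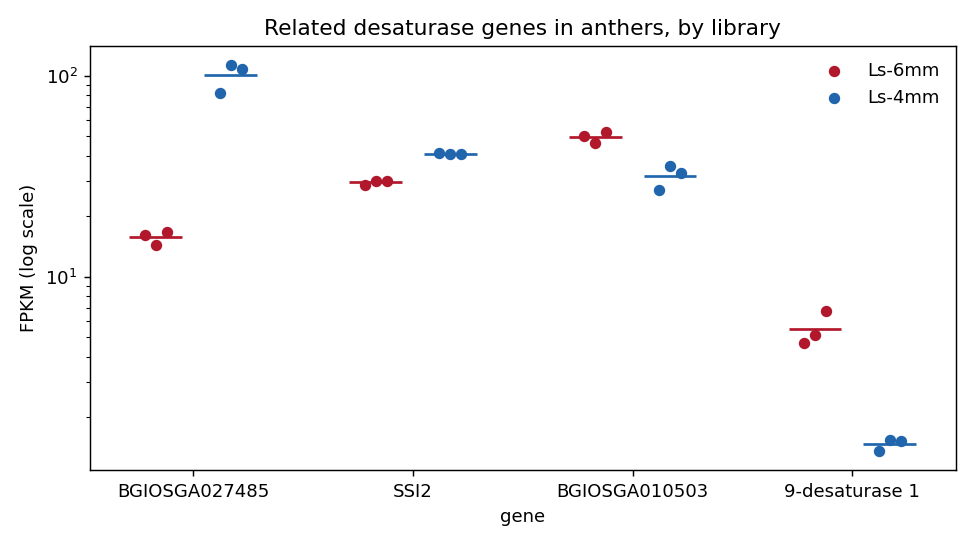
Level of the 4 related desaturase genes with reads, as FPKM on a log axis, with Ls-6mm in red on the left and Ls-4mm in blue on the right of each gene, points for libraries and a line at their mean. BGIOSGA027485 lies at 14.4 to 16.6 FPKM in Ls-6mm and 81.9 to 113 FPKM in Ls-4mm, and SSI2 is also lower in Ls-6mm.

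**Figure D4:**
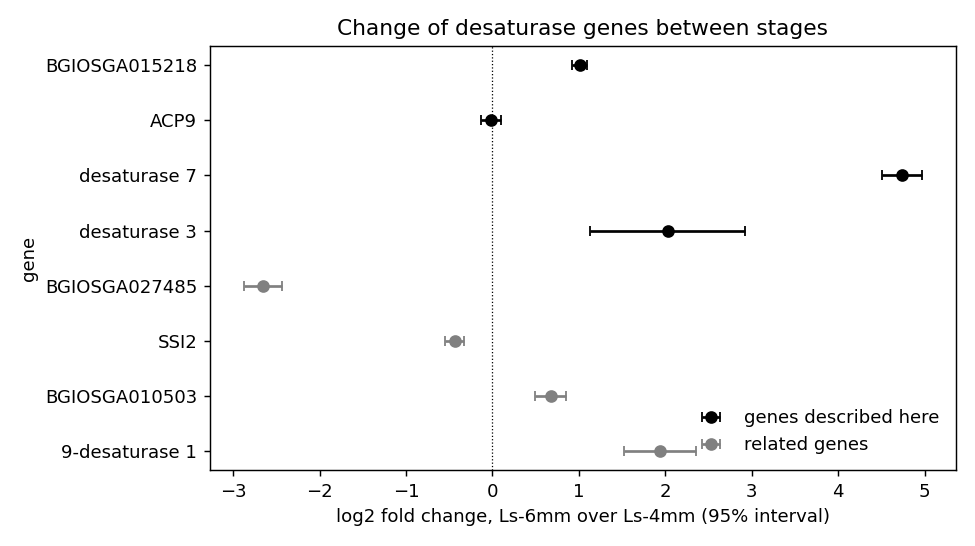
Log2 fold change of Ls-6mm over Ls-4mm with its 95% interval from the edgeR fit, for the 4 acyl-ACP desaturase genes in black and the 4 related genes in grey. Desaturase 7 at 4.73 and its chromosome 8 neighbour BGIOSGA027485 at −2.65 mark the ends, and the interval of ACP9, −0.13 to 0.10, spans 0.

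With the relatives included, the sum of all 10 genes was 540 ± 15.7 FPKM in Ls-6mm and 404 ± 12.2 FPKM in Ls-4mm (SD, n = 3 each), a ratio of 1.34 between the means. BGIOSGA015218 made up 65.7% of the summed FPKM in Ls-6mm and 45.0% in Ls-4mm. The share of BGIOSGA027485 was 2.91% in Ls-6mm and 24.9% in Ls-4mm, and that of desaturase 7 was 7.47% in Ls-6mm and 0.385% in Ls-4mm. In FPKM BGIOSGA027485 was thus the second of these genes in Ls-4mm and the sixth in Ls-6mm. As shares of summed counts, which are not divided by length, BGIOSGA015218 held 52.6% in Ls-6mm and 30.9% in Ls-4mm, and BGIOSGA027485 held 4.60% in Ls-6mm and 33.7% in Ls-4mm. By counts BGIOSGA027485 therefore led in the mean of Ls-4mm and in replicates 2 and 3. In Ls-4mm replicate 1 it had 1585 counts, against 1847 for BGIOSGA015218. The order of these genes at that stage thus depends on the division by length and on the library.

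Genes matched by words for fatty acid synthesis were found in both directions, with log2 fold changes of −0.69 to 0.96. Those tested are described as acyl carrier proteins, FabA-like domain genes or a 3-oxoacyl-ACP synthase. The list called plastid fatty acid synthesis, matched by words in the descriptions, held 13 genes, of which 10 were tested. No description of a tested gene names the plastid. In Ls-6mm 6 were higher and 3 lower (median log2 fold change 0.33). That is near the background, where 42% of all tested genes were higher and 38.6% lower, and nothing is read from it. The most abundant and most changed gene of the list was an acyl carrier protein (BGIOSGA029356), of the kind that presents the acyl chain to the desaturase. It was at 180 ± 5.97 CPM in Ls-6mm and 92.6 ± 1.77 CPM in Ls-4mm (SD, n = 3 each). Its log2 fold change was 0.96 (standard error 0.04, edgeR adjusted p = 8.20e-13), but of 7 tested acyl carrier protein genes only 3 were higher and 3 were lower. A 3-oxoacyl-ACP synthase (BGIOSGA015012), which extends the chain, had a log2 fold change of 0.44.

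Ferredoxins, which carry electrons to plastid desaturases, were listed together with ferredoxin reductases, and genes of this list went in both directions. Of 11 tested genes 6 were higher and 3 lower (median 0.54), where 42% of all tested genes were higher and 38.6% lower. The list includes 1 ferredoxin-thioredoxin reductase, which serves another pathway. The largest change was in the leaf isozyme 2 of ferredoxin-NADP reductase (BGIOSGA007302), at 51.4 ± 1.30 CPM in Ls-6mm and 11.1 ± 0.735 CPM in Ls-4mm (log2 fold change 2.21, edgeR adjusted p = 1.79e-14). The most abundant gene by the mean of all 6 libraries, another ferredoxin-NADP reductase (BGIOSGA009700), fell by 0.45 on the log2 scale, at 39.3 ± 0.468 CPM in Ls-6mm and 53.9 ± 3.71 CPM in Ls-4mm. Chlorophyll a-b binding proteins, markers of green tissue, were higher in 18 of 22 tested genes and lower in 3, beside the same shares of all genes. Their summed level was 3896 to 4029 CPM in Ls-6mm and 1708 to 1991 CPM in Ls-4mm. Of the genes listed as tapetum and pollen wall, 19 of 24 tested were higher and 2 lower. Several of them entered the test only through Ls-6mm, such as BGIOSGA000960 with 722 counts there and 0 in Ls-4mm. For those the direction followed from the filter, so nothing is read from this count. The part of green tissue and of tapetum in the desaturase values was not tested.

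Downstream of the desaturases, acyl-ACP thioesterases, which release the finished chain for export, were higher in 3 of 6 tested genes and lower in 0 (median 0.36). Of all tested genes, 42% were higher and 38.6% lower. With library size as the only scaling 2 of the 6 passed as lower, where 44% of all genes did. The most changed was BGIOSGA023195, at 84.6 ± 0.763 CPM in Ls-6mm and 32.8 ± 1.77 CPM in Ls-4mm (log2 fold change 1.37, edgeR adjusted p = 1.77e-13), and the most abundant by the mean of all 6 libraries, BGIOSGA029478, was at 57.7 ± 2.17 CPM in Ls-6mm and 60.2 ± 2.47 CPM in Ls-4mm. Among other fatty acid desaturases, 5 of 11 were tested, with 2 higher and 2 lower (median −0.11), and 2 of these 5 are the relatives BGIOSGA027485 and BGIOSGA010503. The most abundant, BGIOSGA005733, carries the domain of membrane-bound desaturases that act on lipids already made, and was at 299 ± 8.04 CPM in Ls-6mm and 755 ± 64.6 CPM in Ls-4mm (log2 fold change −1.34, edgeR adjusted p = 1.59e-13). Of the glycerolipid acyltransferases, which load acyl chains onto glycerol, the plastid glycerol-3-phosphate acyltransferase (BGIOSGA033502) fell by 0.44 and a lysophosphatidate acyltransferase (BGIOSGA033204) had a log2 fold change of 0.47, and the other 2 of 4 genes were not tested.

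**Figure D5:**
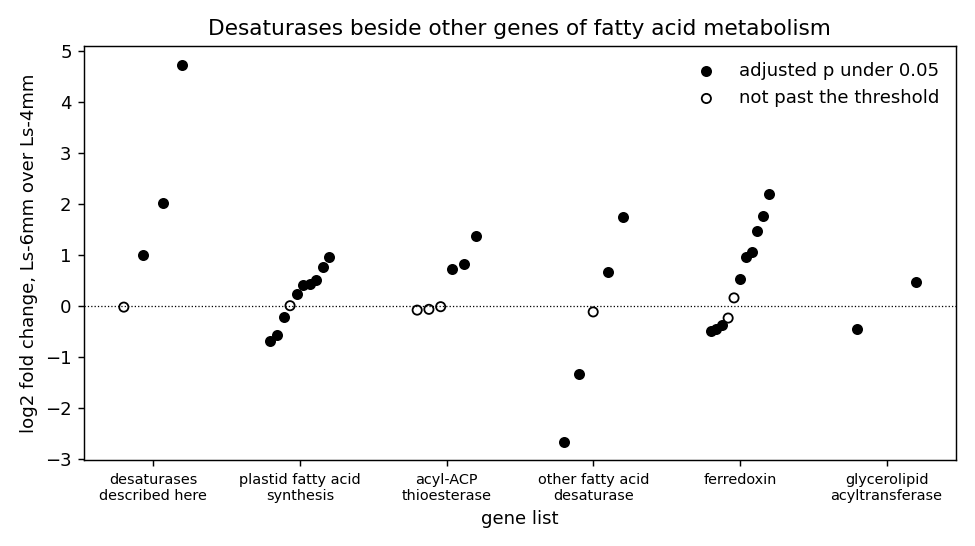
Log2 fold change of Ls-6mm over Ls-4mm for each tested gene of the desaturase family and of 5 lists of fatty acid metabolism, with filled points for an adjusted p under 0.05. Desaturase 7 at 4.73 lies above all other plotted genes, and each list other than the thioesterases holds called genes on both sides of 0 apart from the 4 desaturases, where ACP9 alone is open.

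The likeness of patterns was measured as Pearson's r of log2 CPM over the 6 libraries, among 9752 tested genes with a description, as a description without a test. Closest to ACP9 were an EF-hand protein (BGIOSGA000087, r = 0.982), a protein kinase (BGIOSGA035031, r = 0.953) and an MLO-like protein (BGIOSGA034926, r = 0.942). None of these passed the test between stages, so the likeness rests on small differences between libraries, and the first was at 0.575 CPM in Ls-6mm and 0.678 CPM in Ls-4mm. Closest to BGIOSGA015218 were a peptide methionine sulfoxide reductase (BGIOSGA033452), a nucleoside diphosphate kinase (BGIOSGA024281) and a Myb-like gene (BGIOSGA017601), with r of 0.9998, 0.9998 and 0.9997. For BGIOSGA015218, r was above 0.99 for 1642 genes, or 16.8%, since genes steadily higher in Ls-6mm tend to correlate with it over these libraries.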

How the data were processed

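Counts of 6 libraries, 3 of Ls-6mm and 3 of Ls-4mm, were taken from one table, and 36 further per-sample columns were left out. Per the study's methods and the submitters' processing notes, the authors aligned cleaned paired-end reads with HISAT2 2.0.5 and counted with featureCounts 1.5.0-p3, and the deposited counts are raw whole numbers per gene. The FPKM values were deposited by the authors and divide by gene length, which for all 40745 protein-coding models is a multiple of 3 and thus a coding length. The sources used here do not give the strand setting, and the table holds no comparison columns of the authors.

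In R 4.3.3, edgeR 4.0.16 kept 23691 genes with filterByExpr (minimum count 10, minimum total 15), scaled libraries by TMM and fitted stage as the only term. Standard errors derive from its F statistic. P-values were adjusted by Benjamini-Hochberg over all genes tested. CPM are TMM-scaled except where raw totals are named. Total counts ran from 14509449 to 21232663. Poisson intervals on summed counts cover counting error only. The fit was tested on simulated data. Alternatives for scaling were RLE size factors and library size only, and for the test DESeq2 1.42.0 and limma 3.58.1 on log2(FPKM + 1) and log2(FPKM + 0.1). The low-count filter was dropped or raised to 10 counts per library, the threshold was set to 0.001 and 2-fold, replicate number was added as a block, and each library was left out in turn. All members are named. Of each list the most abundant gene by mean CPM over the 6 libraries and the one with the largest called change are named, and the 3 genes most correlated with ACP9 and with BGIOSGA015218, with a few further examples and the relatives, picked after their values were seen. The members and lists were chosen with earlier results of these data known.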

Additional observations from a re-analysis of the deposited data

How the results depend on the processing

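The calls of BGIOSGA015218, desaturase 7 and desaturase 3 held under each alternative in which the gene was tested, with log2 fold changes of 0.87 to 1.07, 4.01 to 4.79 and 0.62 to 2.37. The low end for desaturase 3 came from limma on log2(FPKM + 1), where the pseudocount exceeds its level, and with at least 10 counts in every library it was not tested. As desaturase 3 entered the main test only through Ls-6mm, nothing is read from its call. Leaving out each library in turn gave 0.98 to 1.03, 4.66 to 4.76 and 1.67 to 2.37, and −0.06 to 0.01 for ACP9, which remained without a call. ACP9 changed its call only with library size as the sole scaling, at −0.15 (adjusted p 0.0175 to 0.982 over the alternatives, by edgeR, DESeq2 or limma), which makes the number of desaturase genes called lower 1. With an adjusted p of at most 0.001 and at least a 2-fold change in the main fit, 36.9% of all genes passed and the 3 higher members still did. BGIOSGA015218 did so narrowly. Its log2 fold change was below the 2-fold limit with library size only (0.87), without the filter (0.99), in both limma fits (0.96 and 0.97) and with some libraries left out. At the threshold of 0.001 and 2-fold in the main fit, the plastid synthesis list had 0 genes higher and 0 lower. By the same threshold the thioesterases had 1 higher, the other desaturases 1 higher, the ferredoxin list 0 lower and the acyltransferases 0 in either direction. With library size only, 2 thioesterases passed as lower, where 44% of all genes did. The ratio of summed levels was 1.97 in CPM and 1.89 to 1.96 with a library left out. As shares of summed counts, which are not divided by length, BGIOSGA015218 held 68.9% in Ls-6mm and 67.4% in Ls-4mm, ACP9 15.8% in Ls-6mm and 31.3% in Ls-4mm, desaturase 7 15% in Ls-6mm and 1.11% in Ls-4mm, and desaturase 3 0.323% in Ls-6mm and 0.152% in Ls-4mm. The log2 difference of the ratio of BGIOSGA015218 to ACP9 was 0.98 to 1.06 with a library left out. Same-numbered libraries did not deviate together (r = −0.03, −0.01 and −0.01 over genes). With so few libraries per stage this cannot settle whether the numbers pair them. With the replicate block 18824 genes were called, against 19103 without it, and the desaturases had log2 fold changes of 1.01, −0.02, 2.03 and 4.73 for BGIOSGA015218, ACP9, desaturase 3 and desaturase 7, with no change of call. Depth limits desaturase 3 most, with 13 counts in all in Ls-4mm.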
